A study of Mus musculus with 8 samples.

Results

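The genes described here encode 4 microRNAs tied to inflammation in myeloid cells: Mir146 (the mouse miR-146a gene), Mir155, Mir223 and Mir21a. They were taken as the rows of the deposited table whose probe set number is the Entrez gene number of one of these genes. Of the 4 genes, 2 had such a row, Mir146 (387164) and Mir155 (387173), out of 24011 named genes in all. Mir223 and Mir21a themselves were not analysed here. Each lies within the span of a longer gene that did have a row, and those 2 genes are described in their own right. The set was chosen by biological role and by the log2 change of Mir146 between these same arrays, which was already known, so the differences of Mir146 and Mir155 between the treatments are given as a description and support nothing.

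RNA of mouse macrophages was hybridised to 8 Affymetrix whole-transcript arrays, 4 from cells given hepcidin (the peptide hormone that removes the iron exporter ferroportin from the cell surface) at 10 µg/ml and 4 from cells given PBS, all lysed after 1 h. All cells came from the marrow of wild-type mice aged 8 to 10 weeks, grown for 7 days with L cell-conditioned medium as the source of the macrophage growth factor M-CSF and replated at 150000 cells per well. The labels give neither the strain and sex of the mice nor what the numbers 1 to 4 within each treatment stand for (animals, cultures or days), and the spread between arrays, on which the p-values rest, may be technical. Values are log2 intensities after RMA, the authors' normalization. Array medians lay between 4.87 and 4.95, and precision is limited by having 4 arrays in each group. All 8 measured macrophage markers, from 8.34 to 13.13, stood above the 90th percentile of the background markers given below, which are those of B, T and NK cells and endothelium. Of the other marker lists, that percentile was passed by 6 of 14 genes of neutrophils and their precursors (up to 8.91), 2 of 6 of megakaryocytes (up to 8.41), 1 of 6 of fibroblasts (5.74), 0 of 7 of mast cells and basophils and 0 of 5 of dendritic cells.

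A microRNA gene is transcribed into a long primary RNA, from which Drosha cuts a hairpin. Dicer cuts the hairpin into a mature strand of about the length of the sequences below, which an Argonaute protein carries to mRNAs that match its seed, bases 2 to 8 of the mature strand. In macrophages NF-kB switches on the primary transcripts of miR-146a and miR-155. miR-146a restrains Toll-like receptor signalling through its adaptors and miR-155 favours inflammatory activation. miR-223 marks the granulocyte and monocyte lineage, and miR-21 is induced in many inflamed tissues. Whole-transcript arrays are made for long RNA, so the values below concern RNA transcribed from the gene. The mature microRNAs were not measured.

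The main mature strands are shown because they define what each gene makes, with the seed in capitals (RefSeq, GRCm38.p6, 5′ to 3′). miR-146b-5p is added because it carries the seed of miR-146a-5p.
miR-146a-5p: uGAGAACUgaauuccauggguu
miR-146b-5p: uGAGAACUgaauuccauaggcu
miR-155-5p: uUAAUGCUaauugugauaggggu
miR-223-3p: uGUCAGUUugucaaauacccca
miR-21a-5p: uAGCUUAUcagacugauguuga
Between the 4 genes of the set no seed was shared. Among the mature mouse microRNAs of the RefSeq table, 1 other carried the seed of miR-146a-5p, miR-146b-5p. The strands of this pair differ outside the seed by G18A and U21C (the base of miR-146a-5p, its position from the 5′ end, the base of miR-146b-5p). The seed of miR-21a-5p was carried by 1 other, miR-21c, and those of miR-155-5p and miR-223-3p by 0 others.

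The hairpins of the 2 genes with a row of their own show how short the annotated gene is that each probe set is named for. Capitals mark both mature arms.
Mir146 hairpin: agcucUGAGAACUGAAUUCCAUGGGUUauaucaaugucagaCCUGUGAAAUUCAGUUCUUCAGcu
Mir155 hairpin: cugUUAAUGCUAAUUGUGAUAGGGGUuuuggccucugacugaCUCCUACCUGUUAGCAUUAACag
The Mir146 hairpin has 65 bases at chr11:43374397-43374461 on the minus strand, and the Mir155 hairpin has 65 bases at chr16:84714140-84714204 on the plus strand (GRCm38.p6). Their GC contents were 40.0% and 43.1%, against a median of 48.7% for the 450 other microRNA genes on the array with a hairpin sequence in the table. No gene of the RefSeq table spans the Mir146 hairpin. The Mir155 hairpin lies inside the long non-coding gene Mir155hg, which was not analysed here.

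Mir146 RNA was higher with hepcidin in every pair of arrays of the same number, and the groups did not overlap. Its log2 level was 3.95, 3.51, 4.26 and 3.95 on the hepcidin arrays numbered 1 to 4, against 3.12, 2.65, 2.81 and 2.85 on the PBS arrays. The lowest hepcidin array lay 0.39 above the highest PBS array. The mean was 3.92 ± 0.31 with hepcidin and 2.86 ± 0.19 with PBS (SD, n = 4 each), a log2 change of 1.06 ± 0.16 (SE) and a ratio of 2.09. By pair the ratio was 1.78-fold, 1.81-fold, 2.73-fold and 2.16-fold. Over all 24011 genes the groups did not overlap, with hepcidin higher, in 0.845%, and hepcidin was higher in 4 of 4 pairs in 5.69%. These shares are given for scale only.

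The levels of Mir155 overlapped between the treatments. Its log2 level was 4.80, 4.93, 4.78 and 5.50 on the hepcidin arrays numbered 1 to 4, against 5.01, 4.89, 4.71 and 5.10 on the PBS arrays. The groups overlapped, and the array numbered 4 was the highest of each group. The mean was 5.00 ± 0.34 with hepcidin and 4.93 ± 0.17 with PBS (SD, n = 4 each). The log2 change of 0.08 ± 0.16 (SE) had a 95% confidence interval from -0.28 to 0.44, and the pairs differed by -0.21, 0.04, 0.07 and 0.40. Without the hepcidin array numbered 4 the change was -0.09.

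**Figure D1:**
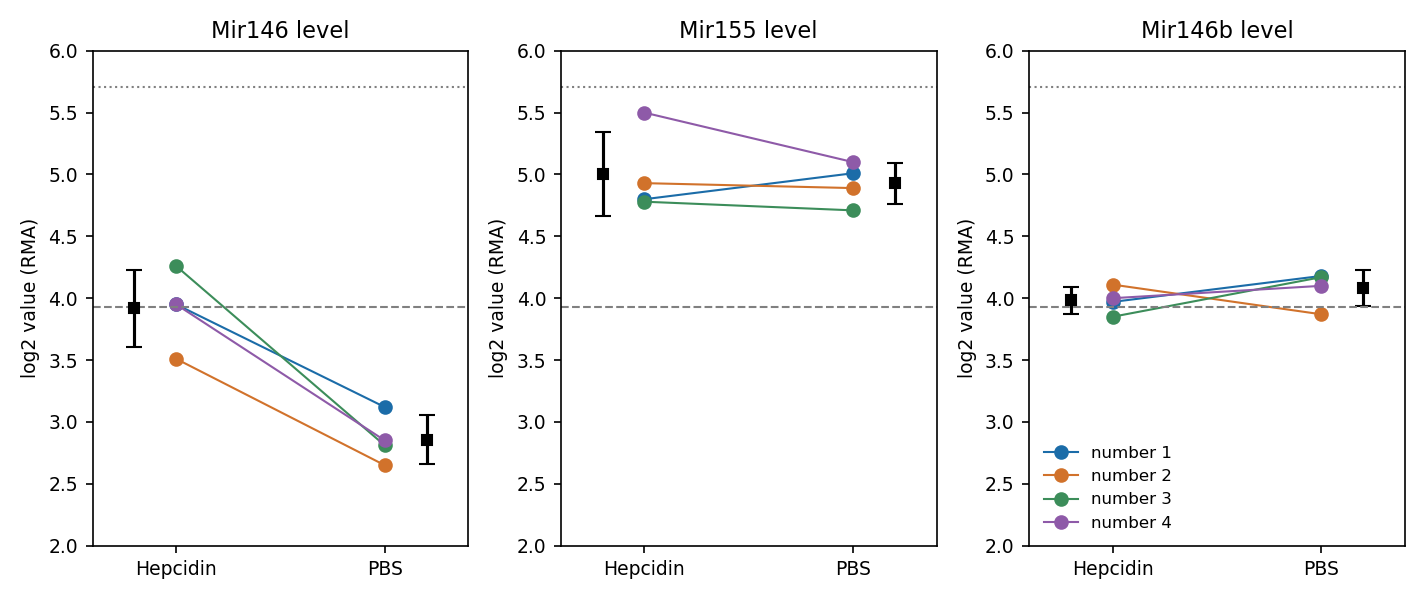
Log2 values of Mir146, Mir155 and Mir146b on each array, hepcidin left and PBS right, with lines joining arrays of the same number and black squares with bars for mean ± SD (n = 4 each). The dashed line is the median (3.93) and the dotted line the 90th percentile (5.71) of the background markers, and Mir146 is the gene of the 3 whose hepcidin arrays all lie above its PBS arrays.

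In limma with adjustment over the whole table, 0 of the 2 genes and 0 of all 24011 (0.0%) reached an adjusted p of 0.05. An unadjusted p under 0.05 was found for 686 genes (2.86%), 319 of them higher with hepcidin (1.33%). The arrays pair by number, and with the number as a random block in limma 5 genes passed (0.0208%), Mir146 among them with an adjusted p of 0.0364. With the number as a fixed block in limma, the SE of Mir146 was 0.11 and its adjusted p was 0.105.

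Both genes were dim. Background was gauged by 30 markers of lymphocytes (B, T and NK) and of endothelium, whose levels had a median of 3.93 and a 90th percentile of 5.71. The hepcidin mean of Mir146 lay at that median, its PBS mean lay below it, and 4 of the 30 markers had a lower mean over all arrays. The mean of Mir155 over all arrays, 4.97, was above 23 of the 30 markers and below their 90th percentile. Against 1091 olfactory receptor genes, which macrophages are not known for, the order was different. Their median was 2.92 and their 90th percentile 4.21, so that Mir155 lay above 96.4% of them and Mir146 above 71.6%. Levels of different probe sets depend on their probes as well as on the RNA, so these positions describe brightness and not abundance. RMA compresses ratios of dim probe sets, and the ratio of Mir146 may be understated. Mir146 was also chosen with its change in these same arrays known, by which the ratio may be overstated. Neither was tested.

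Mir146b, the gene of the microRNA with the same seed (751550, chr19:46342762-46342870), was singled out after the values were seen. It lay between 3.85 and 4.11 on the 4 hepcidin arrays and between 3.87 and 4.18 on the 4 PBS arrays. The groups overlapped, and the change of -0.10 ± 0.10 (SE) had a 95% confidence interval from -0.31 to 0.12. Hepcidin was higher in 1 of 4 pairs.

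Among the 535 microRNA genes on the array, Mir146 had the largest rise, and Mir155 ranked 133 by its change. The 533 others had changes from -0.42 to 0.58 with a median of -0.01, and 251 of them were higher with hepcidin. Of these others 19 had an unadjusted p under 0.05 (3.56%, against 2.86% of all genes), and 0 passed in limma over all genes. With the number as a fixed block in limma, 38 of the 533 had an unadjusted p under 0.05, against 1179 of all 24011 genes. Mir146 varied more within a group than most microRNA genes, with a pooled SD of 0.26 against a median of 0.17 for the others, and Mir155 had 0.27. Of the 7684 other genes whose mean lay below the background median, 0 changed by 1 or more on the log2 scale. Mir146 was chosen with its change known, so its rank and this count are a description and support nothing.

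**Figure D2:**
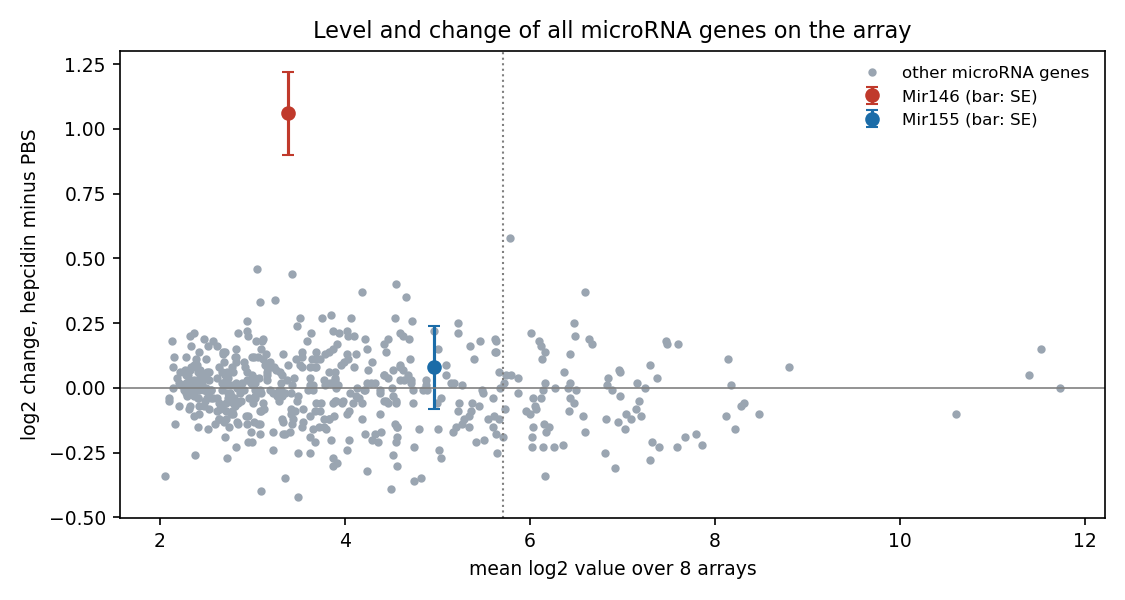
Log2 change (hepcidin minus PBS) against mean log2 level over the 8 arrays for the 535 microRNA genes, with ± SE for Mir146 and Mir155 and a dotted line at the 90th percentile of the background markers. Mir146, at 1.06, stands above the other microRNA genes, which lie between -0.42 and 0.58, and Mir155 lies among them at 0.08.

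The other microRNA genes with the largest differences did not pass the test. Mir669a-3, a gene of a large repeated family whose copies may share probes, had 5.58, 5.71, 6.32 and 6.69 on the hepcidin arrays numbered 1 to 4 and 4.84, 5.15, 5.80 and 6.19 on the PBS arrays, a change of 0.58 ± 0.32 (SE). Its groups overlapped, but its pairs differed by 0.74, 0.56, 0.52 and 0.50. With the number as a fixed block in limma, its SE was 0.08 and its adjusted p 0.214. Mir421 and Mir693 changed by 0.46 ± 0.13 and 0.44 ± 0.12 at mean levels of 3.05 and 3.43. Like Mir146, both were higher with hepcidin in 4 of 4 pairs, as were 5.69% of all genes. Their groups did not overlap either, with gaps of 0.17 and 0.05. This held, with hepcidin higher, for 0.845% of all genes. The lowest changes were those of Mir30c-1 at -0.42 ± 0.25, Mir494 at -0.40 ± 0.19 and Mir3093 at -0.39 ± 0.20. The 5 microRNA genes with the highest levels, Mir449b (11.73), Mir5099 (11.53), Mir692-1 (11.39), Mir3064 (10.61) and Mir1195 (8.80), had changes between -0.10 and 0.15.

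The genes whose log2 values followed those of Mir146 most closely over the 8 arrays, among genes above the 90th percentile of the background markers, were Nfkbie (Pearson r = 0.976), Nfkbiz (0.972) and Tnf (0.956). Tnf encodes the inflammatory cytokine, and Nfkbie and Nfkbiz encode members of the IκB family that bind NF-kB. The treatment itself enters these correlations, and all points share the same arrays. Tnf had 11.60, 11.37, 11.86 and 11.85 on the hepcidin arrays numbered 1 to 4 and 10.49, 10.36, 10.08 and 10.62 on the PBS arrays. The pair differences of Tnf were 1.11, 1.01, 1.77 and 1.23, against 0.83, 0.85, 1.45 and 1.11 for Mir146. Nfkbiz had 1.37, 0.72, 1.52 and 1.33, Nfkbie 0.85, 0.62, 1.03 and 0.69, the IκBα gene Nfkbia 0.74, 0.70, 1.31 and 1.01, and the A20 gene Tnfaip3 0.65, 0.50, 0.97 and 0.75. In each of these 6 genes the pair numbered 3 had the largest difference. How many of all genes share this was not counted. The array levels behind these differences were not alike. On the hepcidin array numbered 3, Mir146 was the highest of its group (4.26) and Tnfaip3 the lowest (8.90). On the PBS array numbered 3, Nfkbia (9.38) and Tnfaip3 (7.93) were the lowest of their group, and Mir146 (2.81) was not (2.65 on the array numbered 2). Nfkbie, Nfkbiz and Tnf also had the highest r with Mir146 over these arrays, so part of the likeness of their pair differences is built in. With Nfkbia and Tnfaip3 the r of Mir146 was lower, at 0.927 and 0.777. Of microRNA genes, Mir184 (r = 0.880), Mir344c (0.777) and Mir421 (0.743) were most like Mir146. Mir184 and Mir344c changed by 0.14 and 0.16.

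**Figure D3:**
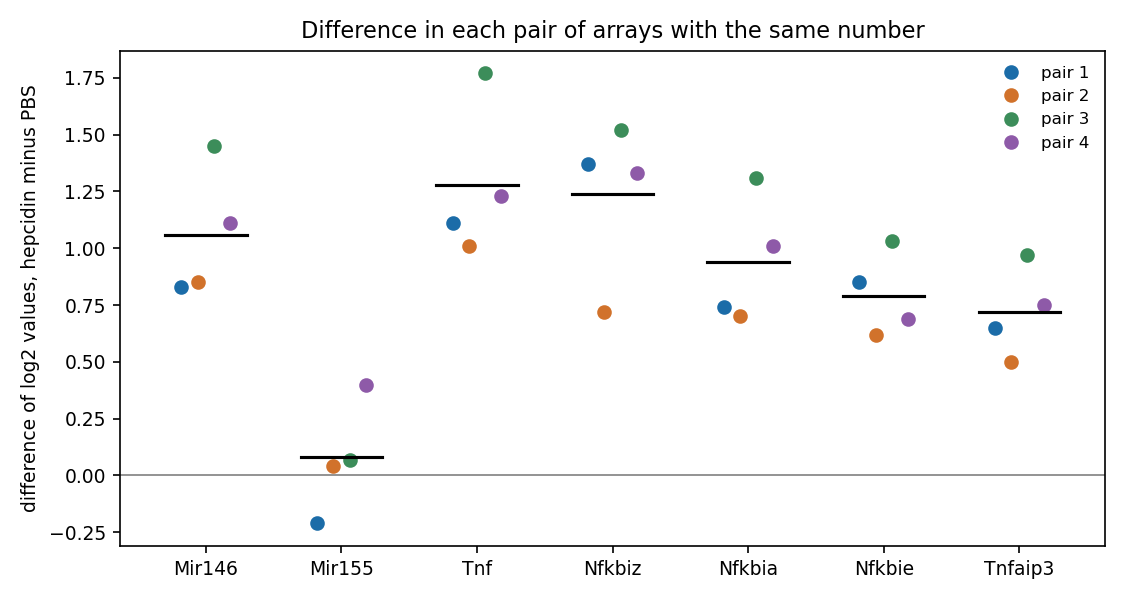
Difference of log2 values, hepcidin minus PBS, in each pair of arrays with the same number for Mir146, Mir155 and 5 NF-kB target genes, with a black line at the mean change. The pair numbered 3 is the highest in Mir146 and in all 5 target genes, and the pairs of Mir155 lie on both sides of 0. How many of all genes are highest in that pair was not counted, and the array levels behind these differences were not alike between genes.

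The genes most like Mir155 were different ones. Capza2, which encodes a subunit of the actin capping protein (r = 0.961), the zinc finger gene Zbtb25 (0.945) and the ribosome assembly gene Pno1 (0.933) came first over the 8 arrays, and their changes with hepcidin lay between -0.01 and 0.04. Of microRNA genes these were Mir695 (0.940), Mir3963 (0.902) and Mir711 (0.901), at mean levels of 3.70, 2.45 and 3.43. With the 5 NF-kB target genes above, the correlation of Mir155 was 0.536 for Tnfaip3, 0.383 for Nfkbia, 0.317 for Tnf, 0.186 for Nfkbiz and 0.104 for Nfkbie. Capza2 had 11.34, 11.45, 11.39 and 11.58 on the hepcidin arrays numbered 1 to 4 and 11.44, 11.38, 11.32 and 11.47 on the PBS arrays, so the array numbered 4 was the highest of each group, as for Mir155.

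Mir223 (chrX:96242817-96242926) lies inside F630028O10Rik (100038363, chrX:96239926-96243642), a long non-coding gene that the RefSeq table also lists under the synonym mir-223. This gene was bright and differed more by array number than by treatment. It had 7.98, 9.65, 9.83 and 10.06 on the hepcidin arrays numbered 1 to 4 and 8.16, 9.84, 9.97 and 10.13 on the PBS arrays. Both arrays numbered 1 lay far below the other 3 of their group. Hepcidin was lower in 4 of 4 pairs, by 0.17, 0.20, 0.14 and 0.07, where 5.92% of all genes were lower in 4 of 4. The change was -0.15 with an SE of 0.52 without the number as a block and 0.07 with it, and limma gave unadjusted p-values of 0.784 and 0.0712. Without both arrays numbered 1 the change was -0.14 ± 0.13.

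Genes of neutrophils and their marrow precursors were also low on the arrays numbered 1, as were macrophage markers, by a smaller amount. Of 14 such genes, 11 were lower on the hepcidin array numbered 1 than on each other hepcidin array, and 10 were lower on the PBS array numbered 1 than on each other PBS array. Over all genes these shares were 28.0% and 29.5%, and of the 8 macrophage markers 5 and 6 were lower in this way. The mean level of the 14 genes was 4.56 on the hepcidin array numbered 1 against 5.48 to 5.81 on the other hepcidin arrays, and 4.72 on the PBS array numbered 1 against 5.50 to 5.85 on the other PBS arrays. The 8 macrophage markers had 10.99 and 10.85 on the hepcidin and PBS arrays numbered 1, against 11.33 to 11.42 on the other 6 arrays. On these bulk arrays, fewer cells of a type and less RNA per cell cannot be told apart, and the part of either in the level of F630028O10Rik was not tested.

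**Figure D4:**
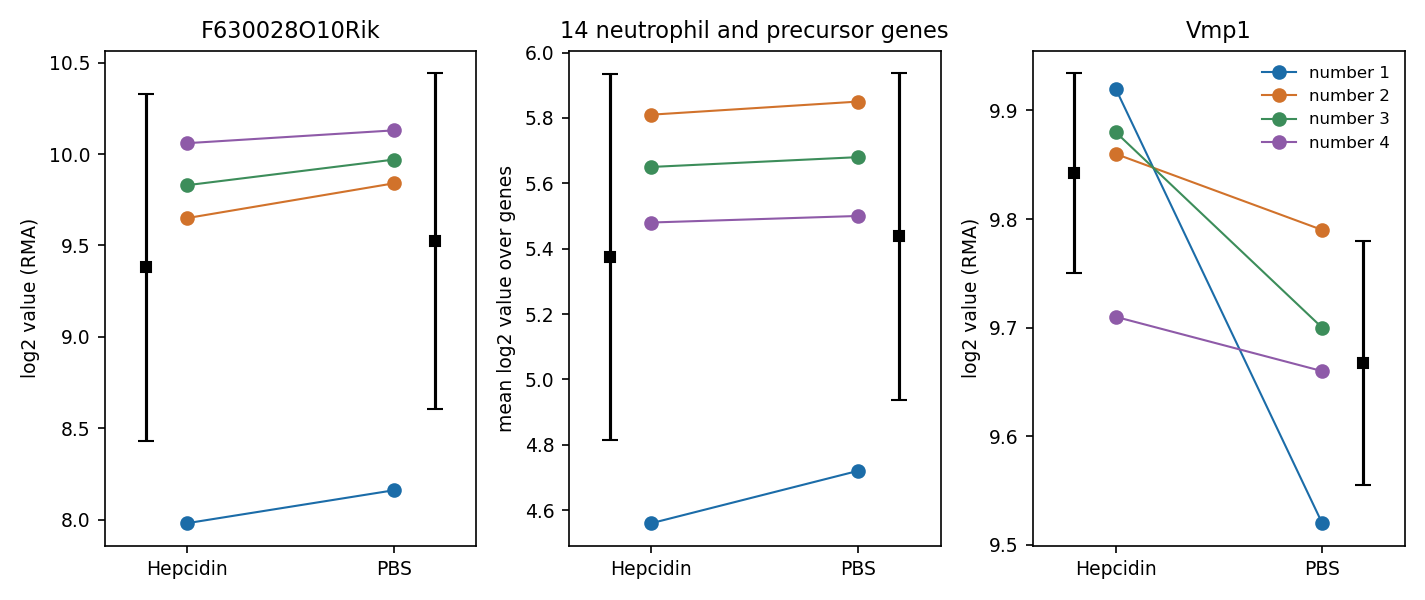
Log2 values on each array of F630028O10Rik, which spans Mir223, of the mean of 14 neutrophil and precursor genes, and of Vmp1, which spans Mir21a, with lines joining arrays of the same number and black squares with bars for mean ± SD (n = 4 each). The arrays numbered 1 are low in the left and middle panels, at 7.98 and 8.16 for F630028O10Rik, and the groups of Vmp1 overlap.

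Mir21a (chr11:86584067-86584158) lies at the end of Vmp1 (75909, chr11:86583858-86683836), which encodes a membrane protein needed for autophagy. Vmp1 had 9.92, 9.86, 9.88 and 9.71 on the hepcidin arrays numbered 1 to 4 and 9.52, 9.79, 9.70 and 9.66 on the PBS arrays. Hepcidin was higher in 4 of 4 pairs, by 0.41, 0.07, 0.18 and 0.04, where 5.69% of all genes were higher in 4 of 4. The groups overlapped. The change of 0.18 ± 0.09 (SE) had a 95% confidence interval from -0.02 to 0.37 and an unadjusted p of 0.0719 in limma. Without both arrays numbered 1 the change was 0.10 ± 0.09. Vmp1 mRNA need not follow the primary transcript of Mir21a, which also has a start of its own, so neither value stands for the microRNA.

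Other genes of microRNA biology were described through 8 lists, chosen with earlier results of these data known, which held 116 distinct measured genes. Adjusted over the whole table in limma, 0 of them reached 0.05, where 0.0% of all genes did. An unadjusted p under 0.05 was found for 7, all higher with hepcidin, or 6.03% against 1.33% of all genes in that direction. The median change was -0.01, against 0.00 for all genes.

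The 34 measured microRNA genes known from immune or myeloid cells had a median change of -0.03, with 14 higher, 20 lower and 0 at an unadjusted p under 0.05 in limma. The smallest p in this list belonged to Mir125b-1, at 0.20 ± 0.10 with a level of 2.33, and to Mir132, at -0.17 ± 0.12 with a level of 3.22. Mir142, a blood cell microRNA gene, had a level of 6.43 and a change of 0.13 ± 0.15, and Mir221 one of 7.48 and a change of 0.17 ± 0.15. Of 8 measured host or named non-coding transcripts, 1 was higher (Vmp1) and 7 were lower, the lowest at -0.09, where 50.4% of all genes were higher. None of the 8 had an unadjusted p under 0.05 in limma. The host gene Mir22hg stood at 6.03 with a change of -0.03 ± 0.16 and Mir17hg at 6.18 with -0.08 ± 0.18.

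Of the processing factors none passed the test. All 22 were measured, 19 of them above the 90th percentile of the background markers, and their changes lay between -0.22 and 0.17 with 0 at an unadjusted p under 0.05 in limma. The nuclear hairpin cutter Drosha changed by -0.06 ± 0.08, its partner gene Dgcr8 by -0.07 ± 0.13, Dicer1 by 0.01 ± 0.08, the exporter gene Xpo5 by 0.10 ± 0.07 and Ago2 by 0.05 ± 0.11. The extremes were Tarbp2, which encodes a Dicer partner, at -0.22 ± 0.12 and Lin28a, an inhibitor of let-7 maturation, at 0.17 ± 0.11 with a level of 4.20 in the background range.

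Of 14 measured transcription factors that act on these genes, 9 were higher with hepcidin (64.3%, against 50.4% of all genes). An unadjusted p under 0.05 was found for 2 of them, Junb and Cebpb, both higher (14.3%, against 1.33% of all genes in that direction). With the number as a fixed block in limma it was found for 4 of the 14, against 1179 of all 24011 genes in either direction. Junb, an AP-1 subunit, had 8.28, 8.28, 8.50 and 8.68 on the hepcidin arrays numbered 1 to 4 and 7.77, 7.86, 7.98 and 8.38 on the PBS arrays, a change of 0.44 ± 0.14. Cebpb changed by 0.34 ± 0.13 and was higher in 4 of 4 pairs, as were 5.69% of all genes. Rela, the NF-kB subunit gene, changed by 0.03 ± 0.11 at a level of 10.27. Spi1, the PU.1 gene that drives Mir223 in the myeloid lineage, changed by -0.01 ± 0.09 at 11.91, and Cebpa by -0.06 ± 0.09.

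Reported targets of the 4 microRNAs were measured for 43 distinct genes, of which 23 were higher with hepcidin. Of these 6 had an unadjusted p under 0.05, all higher, where 1.33% of all genes were called in that direction, and 0 passed over all genes in limma. With the number as a fixed block in limma, 10 of the 43 had an unadjusted p under 0.05. Of all 24011 genes 1179 did, in either direction. For miR-146a, the adaptor genes Irak1 and Traf6 changed by -0.07 ± 0.12 and 0.01 ± 0.07, while Relb, an NF-kB subunit gene, changed by 0.42 ± 0.11 and Irak2 by 0.21 ± 0.11. Relb had 7.89, 7.48, 7.65 and 7.57 on the hepcidin arrays numbered 1 to 4 against 7.42, 7.07, 7.20 and 7.23 on the PBS arrays. Its groups did not overlap, by a gap of 0.06, as held with hepcidin higher for 0.845% of all genes. The 8 measured targets of miR-146a had changes from -0.11 to 0.42.

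The 13 measured targets of miR-155 had a median change of -0.01. Ikbke, an NF-kB pathway kinase gene, changed by 0.29 ± 0.10 and Cebpb, which is also among the transcription factors above, by 0.34. The signalling inhibitor genes Socs1 and Inpp5d changed by -0.03 ± 0.12 and 0.02 ± 0.13. Of 11 measured targets of miR-223, 8 were higher (72.7%, against 50.4% of all genes), with a median of 0.03. They included Nlrp3, the inflammasome sensor, at 0.34 ± 0.11, and the chemokine genes Cxcl2 at 2.25 ± 0.62 and Ccl3 at 0.19 ± 0.09. With the number as a fixed block in limma, Cxcl2 passed with an adjusted p of 0.0405 and was the 1 gene to do so over all genes (0.00416%). The 11 measured targets of miR-21 had changes from -0.09 to 0.36. Btg2, an inhibitor of proliferation, changed by 0.36 ± 0.20, the tropomyosin gene Tpm1 by 0.09 ± 0.09 and the translation inhibitor gene Pdcd4 by -0.09 ± 0.11.

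**Figure D5:**
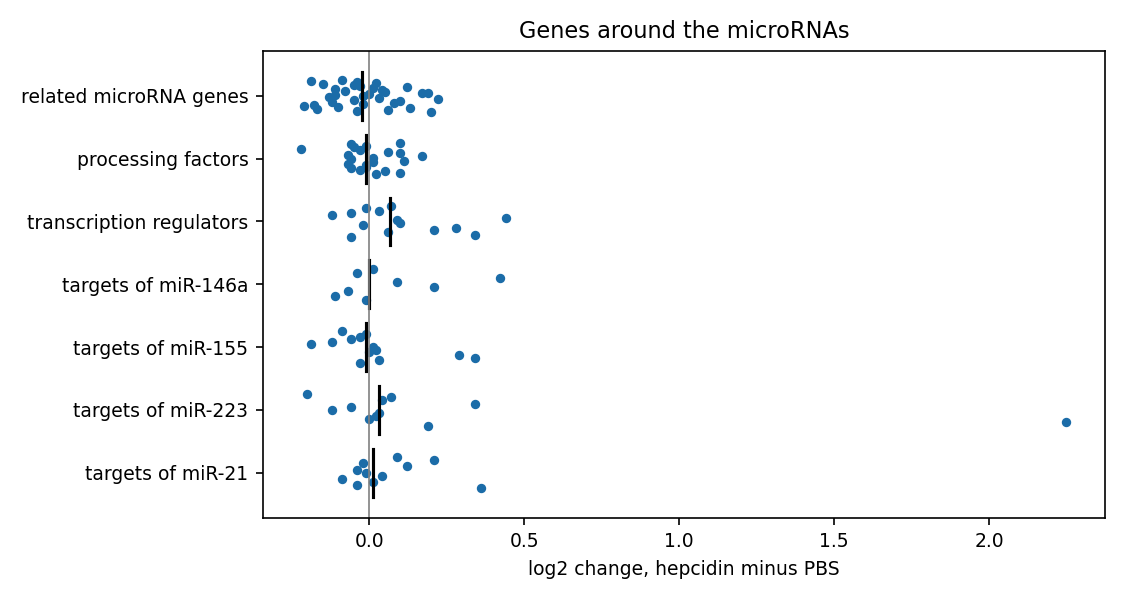
Log2 change with hepcidin of each measured gene in 7 of the lists, with a black line at the list's median. The medians lie close to 0, and the point at 2.25 is Cxcl2, listed as a target of miR-223.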

How the data were processed

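Per the submitters' processing notes, the authors made the deposited log2 values with RMA in affy 1.36.1. The sources used here do not give the probe set definition or its build. Values were used as deposited, with no filter on low values. Of 24973 probe sets, 24015 had 1 listed gene symbol, and the brightest was kept per symbol, giving 24011 genes. Gene types, spans and sequences came from RefSeq (GRCm38.p6). The treatments were compared per gene in limma 3.58.1 (R 4.3.3), with Benjamini-Hochberg adjustment over the whole table and a threshold of 0.05. Changes are differences of log2 values, hepcidin minus PBS, ± SE. Unless a block is named, the SEs, confidence intervals and p-values come from the fit without the array number. They do not use the pairing and are not those of the change within pairs.

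Equal numbers paired the arrays. The correlation of deviations from group means was 0.344 to 0.548 for arrays of the same number and -0.356 to 0.124 for others, with a bound of 0.1. The pairing comes from the titles and this check. The fits were also run on simulated data with planted changes, and no result of that run is used here.

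The members, lists and alternatives were chosen with earlier results of these data known. Genes were named by rule: the members, the genes past the threshold or else the 2 with the smallest p in each list, 5 NF-kB targets, the 5 brightest and 6 most changed other microRNA genes, and the 3 genes and 3 microRNA genes most like each member. The spanning genes, Mir146b and further list genes named for their role were added after their values were seen. Alternatives were other scalings, filters on dim genes, probe set averages, all probe sets, other variance models, array weights, blocks and left-out arrays. Figures were drawn with matplotlib 3.10.9.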

Additional observations from a re-analysis of the deposited data

Results flagged for a closer look

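Among 86 groups of 4 arrays of the named genes, 6 held an array far from the other 3, and chance gives about 1 in 20. F630028O10Rik was at 8.16 on the PBS array numbered 1, against 9.84 to 10.13 on the other PBS arrays. Mir494 was at 3.95 on the PBS array numbered 1, against 2.99 to 3.13. Irak2 was at 8.57 on the hepcidin array numbered 1, against 8.40 to 8.42. Nfkbiz was at 7.87 on the hepcidin array numbered 2, against 8.49 to 8.60, and at 7.07 on the PBS array numbered 3, against 7.15 to 7.16. Zbtb25 was at 7.36 on the hepcidin array numbered 4, against 7.06 to 7.09.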

How the results depend on the processing

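The change of Mir146 stayed between 0.95 and 1.20 when single arrays were left out, and between 1.06 and 1.14 under the other settings, and its adjusted p over all genes lay between 0.0364 and 1. With the number as a random replicate block the change was 1.06 and passed in limma (0.0364), and it did not pass under the other settings. Filters on dim genes (a mean of at least 6, or at or above the median) removed Mir146, and the filter at 6 removed Mir155. The change of Mir155 ran from -0.09 to 0.15 over left-out arrays. Minus the background median, Mir146 stood at 0.46 against olfactory receptor genes and -0.28 against other microRNA genes, in place of -0.54, and Mir155 at 2.04 and 1.30, in place of 1.03.

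The count of genes past the threshold was 0, and 3 with a mean level of at least 6, 1 with the number as a fixed replicate block, 5 as a random one, and 1 without both arrays numbered 1 but with the block. It ran from 0 to 2 over left-out arrays, with 2 without the hepcidin array numbered 2. In the lists it was 1 with the fixed replicate block, with or without the arrays numbered 1, in place of 0. Other signs turned in genes near 0: Mir449b at 0.01 with median centring, 0.03 with array weights and 0.07 without both arrays numbered 1, with or without the block, Zbtb25 at -0.01 with quantile normalization and with cyclic loess, and Pno1 at 0.00 with median centring and 0.01 without both arrays numbered 1, with or without the block. Over left-out arrays the ranges of genes whose sign turned were -0.60 to 0.32 for F630028O10Rik (0.32 without the hepcidin and -0.60 without the PBS array numbered 1), -0.08 to 0.01 for Mir124a-1hg, -0.04 to 0.07 for Mir449b, -0.00 to 0.10 for Mir692-1, -0.01 to 0.07 for Capza2, -0.06 to 0.04 for Zbtb25, -0.09 to 0.03 for Pno1, -0.01 to 0.06 for Mir3963 and -0.17 to 0.11 for Mir711. Each of these fits leaves an array without its same-numbered partner. The cause of the other differences was not tested. Both Mir146 and Mir155 lie below the 90th percentile of the background markers (5.71), which limits what their values show. Against olfactory receptor genes, whose 90th percentile was 4.21, Mir155 lay above it at 4.97 and Mir146 below it at 3.39.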

Other observations

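Microarray values of microRNA genes can be set beside those of a gene whose span contains them. Spans were taken by position and not by strand, so a spanning gene need not be the host transcript. Of the 535 microRNA genes on the array, 334 lay inside the span of another gene with a row, and 201 did not. The median level was 4.47 for the 159 microRNA genes whose spanning gene stood at 6 or above, 3.32 for the 175 whose spanning gene was below 6, and 3.49 outside any such gene. Across these 334 genes, which share arrays and are not independent, the levels of microRNA gene and spanning gene correlated with a Spearman rho of 0.337. Mir3064, at 10.61, lies inside Ddx5, at 10.91, which encodes an RNA helicase of the Drosha complex. Mir449b was the brightest microRNA gene at 11.73 although Cdc20b, which spans it, stood at 4.17 in the background range.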
